A study of Mus musculus with 16 samples.

Results

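The 8 genes described here encode purinergic receptors and related membrane proteins of microglia: the nucleotide receptors *P2ry12*, *P2ry13*, *P2ry6*, *P2rx4* and *P2rx7*, the ectonucleotidase *Entpd1*, the lysophosphatidylserine receptor *Gpr34* and the adenosine receptor *Adora3*. They were chosen by name, and all 8 were found among the 55385 genes listed in the count table. RNA was sequenced from CD11b+ cells that had been sorted with magnetic beads from mouse brain after removal of the meninges and choroid plexus. CD11b is a surface protein shared by microglia and other myeloid cells. The mice were female and, per the labels, 20 weeks old, with 4 libraries in each of 4 genotypes. WT mice carried intact *Card9* and no transgenes, *Card9*-/- mice carried a germline deletion of this adaptor gene of myeloid immune signaling, 5xFAD mice carried human transgenes with familial Alzheimer's disease mutations under the neuronal *Thy1* promoter, and *Card9*-/-5xFAD mice carried both. The comparisons ask how each gene differed with the transgenes and with the *Card9* genotype.

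Microglia sense nucleotides that leak from damaged or active cells. P2Y receptors couple to G proteins: P2RY12 and P2RY13 respond to ADP, and P2RY12 guides microglial processes toward injury, whereas P2RY6 responds to UDP and promotes phagocytosis. P2RX4 and P2RX7 are cation channels opened by ATP, and P2RX7 activation can trigger the NLRP3 inflammasome. ENTPD1 (CD39) degrades extracellular ATP and ADP to AMP, which other enzymes convert to adenosine, a ligand of ADORA3. GPR34 recognizes lysophosphatidylserine and is grouped with the P2Y-like receptors.

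In the GENCODE annotation of GRCm38, *P2ry12* (chr3:59216272-59262871) and *P2ry13* (chr3:59207892-59210882) are neighbors on the minus strand, and *P2ry13* lies within an intron of *Med12l*, which is on the opposite strand. *P2rx7* (chr5:122643911-122691432) and *P2rx4* (chr5:122707544-122729738) are neighbors on the plus strand. *Gpr34* (chrX:13632089-13640858, plus strand) lies within an intron of *Cask*, on the opposite strand, and *P2ry6* (chr7:100937630-100974649, minus strand) and *Entpd1* (chr19:40612366-40741602, plus strand) shared no exon bases with another gene. *Adora3* (chr3:105870858-105908926, plus strand) shared 779 exon bases, 20.9% of its exon length, with *Tmigd3* on the same strand, so the reads that fall there can be assigned to either gene or to neither, and the *Adora3* values carry that uncertainty.

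The sequences before the RefSeq start sites are shown for the neighbors *P2ry12* and *P2ry13*, and for *Adora3* and *P2rx7*, the members of lowest adjusted p in the comparison of transgenes below. Of the 8 members, 6 matched an entry in the RefSeq promoter table of GRCm38.p6. *P2ry6* and *Gpr34* did not. Each sequence is the 250 bases before a start, 5′ to 3′ on the strand of the gene, at chr3:59262986-59263235 (minus) for *P2ry12*, chr3:59210883-59211132 (minus) for *P2ry13*, chr3:105904171-105904420 (plus) for *Adora3* and chr5:122643677-122643926 (plus) for the first of the 2 *P2rx7* starts. Capitals mark GAGGAA on either strand, the core letters bound by the myeloid factor PU.1, and TGANTCA, the letters bound by AP-1.
P2ry12: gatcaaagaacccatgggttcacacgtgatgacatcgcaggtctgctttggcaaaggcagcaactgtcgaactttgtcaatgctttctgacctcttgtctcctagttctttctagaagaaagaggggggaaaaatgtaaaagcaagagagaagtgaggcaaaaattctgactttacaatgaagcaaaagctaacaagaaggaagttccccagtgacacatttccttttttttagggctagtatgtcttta
P2ry13: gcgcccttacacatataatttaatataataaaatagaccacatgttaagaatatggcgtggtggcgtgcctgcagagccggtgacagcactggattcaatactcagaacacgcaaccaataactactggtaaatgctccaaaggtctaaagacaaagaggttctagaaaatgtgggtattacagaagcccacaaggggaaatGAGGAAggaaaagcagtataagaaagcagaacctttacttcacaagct
Adora3: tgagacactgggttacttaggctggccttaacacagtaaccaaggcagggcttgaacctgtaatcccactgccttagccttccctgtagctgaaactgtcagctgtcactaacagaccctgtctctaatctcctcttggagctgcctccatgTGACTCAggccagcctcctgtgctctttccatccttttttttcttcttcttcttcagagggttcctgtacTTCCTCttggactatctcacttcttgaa
P2rx7: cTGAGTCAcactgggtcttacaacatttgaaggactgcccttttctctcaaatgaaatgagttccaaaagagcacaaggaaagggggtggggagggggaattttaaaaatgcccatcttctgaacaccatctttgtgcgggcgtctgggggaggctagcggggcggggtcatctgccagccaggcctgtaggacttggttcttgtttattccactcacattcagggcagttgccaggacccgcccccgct
GAGGAA was found in 23.3% and TGANTCA in 6.75% of all 32851 promoter windows of this length. The 2 motifs share no overlapping match in these windows. The *Adora3* window held 1 match of each, with GAGGAA on the opposite strand as TTCCTC 28 bases before the start. The *P2ry13* window held 1 GAGGAA, 48 bases before the start, the first *P2rx7* window held 1 TGANTCA near its far end, and the *P2ry12* window held neither. The window of the second *P2rx7* start (chr5:122650133-122650382, plus), which is not shown, held neither motif.

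Between 2970148 and 19333325 reads per library were counted on genes (median 7944265), and all 8 members were among the 14513 genes with enough reads to be tested. *Card9* did not check the labels, because libraries labelled *Card9*-/- had 16.7 to 34.8 CPM (read counts scaled to library size) of it against 13.6 to 51.3 in WT. Those labelled *Card9*-/-5xFAD had 9.73 to 33.7 CPM of it against 15.6 to 33.5 in 5xFAD. Directions along the *Card9* genotype therefore rest on the labels alone. All 10 microglial markers examined were present in every library, among them *Cx3cr1* at 2384 CPM or more. In each genotype 1 library stood apart: WT replicate 1, *Card9*-/- replicate 4, 5xFAD replicate 1 and *Card9*-/-5xFAD replicate 4 had the most choroid plexus marker reads of their genotype (1629, 2528, 1342 and 1131 CPM summed over 7 genes, against at most 749, 213, 868 and 515 in the others), which came mainly from *Ttr*, while *Aqp1* was at 0 in 11 of the 16 libraries. Their summed microglial markers were the lowest of each genotype, from 15604 to 18042 CPM, whereas the other 12 libraries had 18894 to 30957. In RNA of bulk sorted cells, fewer cells of a type and less RNA per cell cannot be told apart. Values without these 4 libraries are given beside the results of the members.

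The members spanned a wide range of abundance, and the order was led by P2Y-type receptors. In CPM per kilobase of exon, the only scale on which levels are compared between genes here, *P2ry12* was first, with a median of 1767 over 16 libraries (range 693 to 2477). *Gpr34* followed at 1134 (468 to 1424) and *P2ry13* at 506 (140.4 to 1023). *P2ry12* exceeded *Gpr34*, and *Gpr34* exceeded *P2ry13*, in each of the 16 libraries, although the ranges over libraries overlapped. *P2ry13* lay above *Entpd1* (median 87.1, range 43.1 to 122) with no overlap of ranges. *Entpd1* and *P2ry6* (median 76.6, range 42.5 to 212) did not differ beyond their spread, since *Entpd1* was the higher of the pair in 8 of 16 libraries. *P2ry6* exceeded *P2rx7* in 16 of 16 libraries, *P2rx7* (29.99, range 18.5 to 43.3) exceeded *P2rx4* (21.8, range 9.35 to 29.9) in 12, and *P2rx4* exceeded *Adora3* (9.48, range 5.69 to 13.5) in 14.

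**Figure D1:**
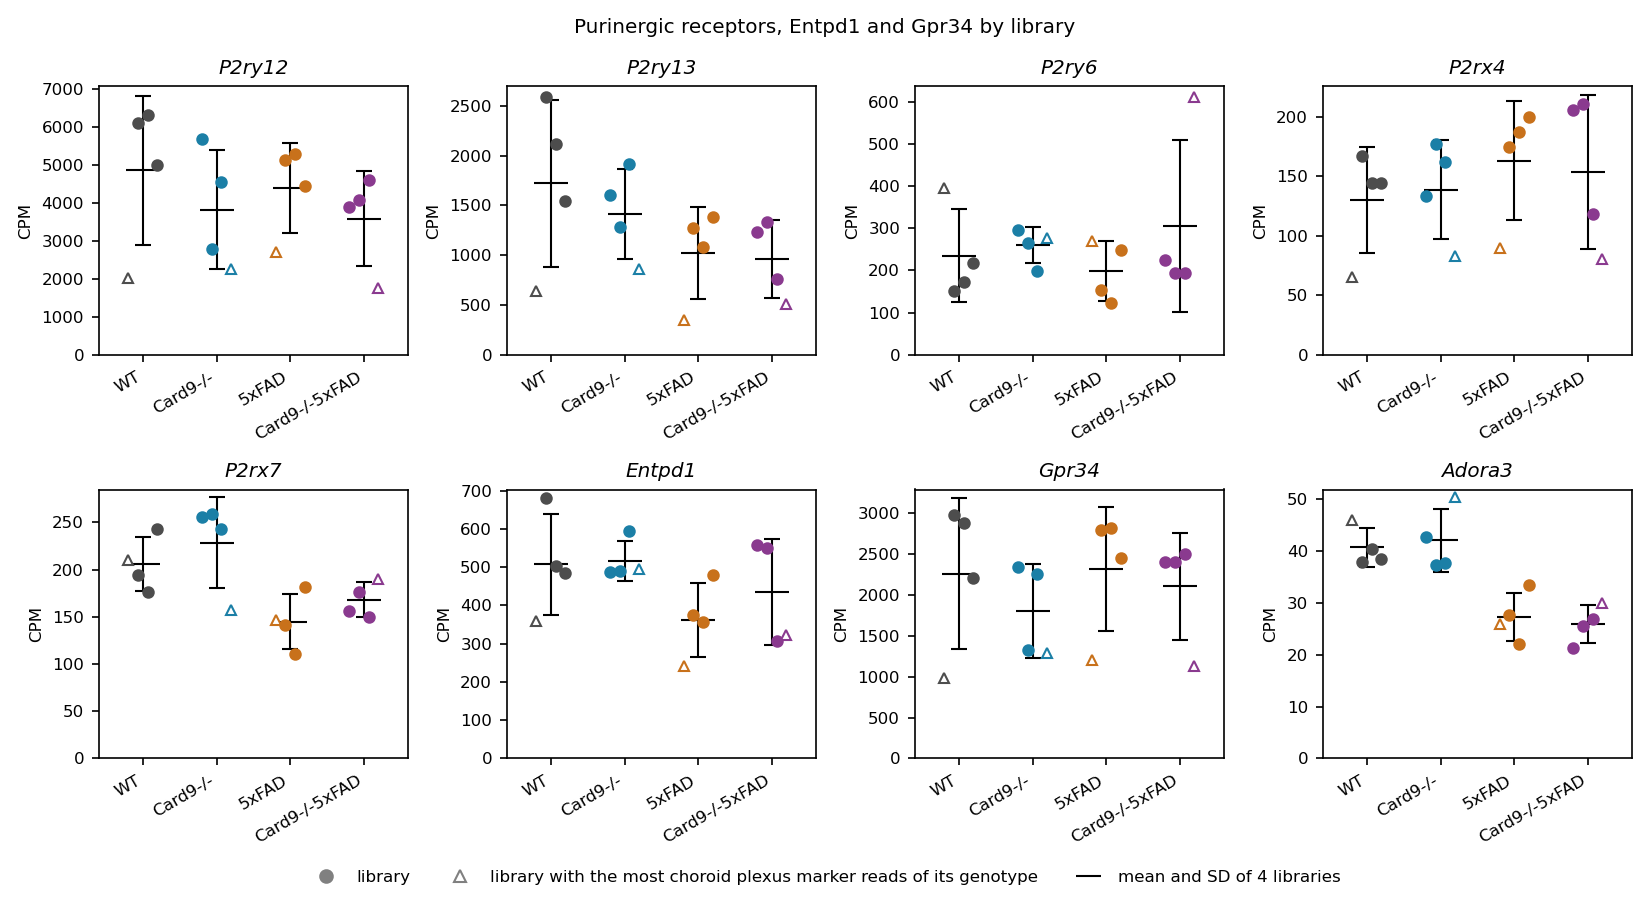
Expression of each member (vertical axis, CPM, starting at 0) in the 4 libraries of each genotype (horizontal axis). Each circle or open triangle is a library, open triangles are the 4 libraries with the most choroid plexus marker reads of their genotype, and the bars give the mean ± SD (n = 4). *Adora3* is lower in all 8 libraries with transgenes than in all 8 without, whereas for *P2ry12*, *P2ry13*, *Gpr34* and *P2rx4* the open triangle is the lowest library of each genotype.

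*Adora3* was lower with the 5xFAD transgenes. Its level was 46.0, 37.9, 40.4 and 38.4 CPM in WT replicates 1 to 4, and 42.8, 37.3, 37.8 and 50.4 CPM in *Card9*-/-. The 5xFAD replicates had 25.9, 27.6, 22.1 and 33.4 CPM, and the *Card9*-/-5xFAD replicates had 21.2, 25.4, 26.9 and 30.04 CPM. All 8 libraries without transgenes lay above all 8 with them, a separation that 1.66% of the tested genes showed in either direction, and no other member did. Means were 40.7 ± 3.68 CPM in WT, 42.0 ± 6.08 in *Card9*-/-, 27.2 ± 4.67 in 5xFAD and 25.9 ± 3.67 in *Card9*-/-5xFAD (SD, n = 4 each). Averaged over both *Card9* genotypes, *Adora3* fell by 0.64 on the log2 scale (SE 0.15), to 64.3% of its level without transgenes (edgeR's quasi-likelihood test, adjusted p = 0.0178, threshold 0.1). The median of all tested genes in this comparison was -0.15. Within either *Card9* genotype alone, the change did not pass: it was -0.58 (SE 0.21, adjusted p = 0.286 by edgeR) in 5xFAD against WT and -0.70 (SE 0.21, adjusted p = 0.15) in *Card9*-/-5xFAD against *Card9*-/-. The 2 changes did not differ detectably (interaction -0.12, SE 0.30, adjusted p = 1 by edgeR).

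The averaged call held when any 1 library was left out (log2 fold change -0.53 to -0.67, adjusted p 0.0162 to 0.0517 by edgeR) and without the 4 libraries that stood apart (-0.55, adjusted p = 0.0151), and was lost when no filter on low counts was applied (-0.62, adjusted p = 0.14). The summed markers of other myeloid cells differed along the same split, with some overlap. Monocyte markers summed over 7 genes, of which only *Vcan* was at 0 in any library, ranged from 383 to 526 CPM in WT, 338 to 490.03 in *Card9*-/-, 161 to 276 in 5xFAD and 129 to 364 in *Card9*-/-5xFAD. Markers of border-associated macrophages, all 8 of which were detected in every library, ranged from 992 to 1629, 806 to 1745, 519 to 822 and 355 to 1716 CPM in the same order. The slope of expression on exon length within a library was -0.05 to 0.19 in WT and -0.02 to 0.41 in *Card9*-/-, against -0.25 to -0.02 in 5xFAD and -0.20 to 0.11 in *Card9*-/-5xFAD, and *Adora3* kept its call with that slope as a covariate (-0.72, adjusted p = 0.0279 by edgeR). The part of the myeloid markers in the *Adora3* difference was not tested.

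The other members did not pass the threshold with the transgenes. In the averaged comparison 1 of the 8 members, *Adora3*, passed by edgeR, beside 11.3% of all tested genes in either direction and 5.73% of them lower, and 2 members had an unadjusted p under 0.05, as did 22.8% of all genes. In 5xFAD against WT 0 of 8 passed by edgeR, where 2.09% of all genes did, 1 had an unadjusted p under 0.05 (10.8% of all genes) and 0 passed by DESeq2 (3.24%). In *Card9*-/-5xFAD against *Card9*-/- 0 of 8 passed by edgeR, where 1.97% did, 1 had an unadjusted p under 0.05 (12.2%) and 1, *Adora3*, passed by DESeq2 (4.82%). By ranges of 4 against 4 libraries, 1 of 8 members, *Adora3*, did not overlap in each of these pairs, beside 8.04% and 7.01% of all genes. The median log2 fold change of the 8 members was -0.36 in 5xFAD against WT, -0.17 in *Card9*-/-5xFAD against *Card9*-/- and -0.24 on average, where those of all tested genes were -0.15 each time.

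**Figure D2:**
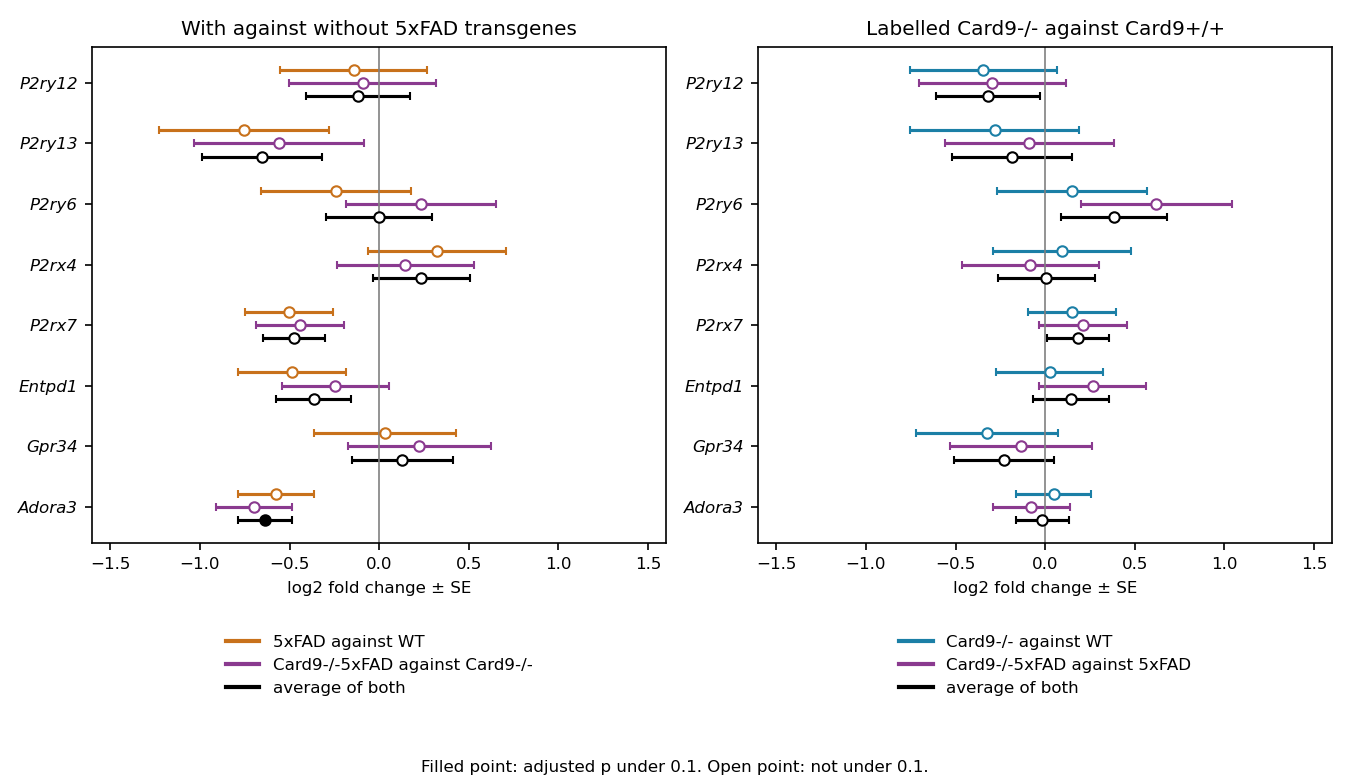
Log2 fold change ± SE (horizontal axis) of each member (vertical axis) by edgeR in 2 panels, with against without 5xFAD transgenes on the left and libraries labelled *Card9*-/- against *Card9*+/+ on the right, colored by comparison. The filled point marks an adjusted p under 0.1 and stands only at *Adora3* in the averaged comparison of transgenes (-0.64), and *P2ry13*, *P2rx7* and *Entpd1* have negative values in all 3 comparisons of the left panel.

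*P2rx7*, the ATP-gated channel, came next to *Adora3*. Its level was 209.9, 194, 176 and 243 CPM in WT, 255, 259, 243 and 157 in *Card9*-/-, 147, 141, 110.4 and 182 in 5xFAD, with 157, 176, 149.6 and 189.8 in *Card9*-/-5xFAD. The groups overlapped, with *Card9*-/- replicate 4 below all WT libraries and among those with transgenes. The averaged log2 fold change was -0.47 (SE 0.17, adjusted p = 0.113 by edgeR), and it passed by DESeq2 on all libraries (-0.41, adjusted p = 0.0363), beside 13.2% of all genes. Without *Card9*-/- replicate 4 it was -0.55 (adjusted p = 0.0447), and without *Card9*-/-5xFAD replicate 4 it was -0.50 (adjusted p = 0.0962, both by edgeR), where 20.5% and 14.4% of all genes passed. In all, *P2rx7* passed in only 5 of 25 alternative settings. Their log2 fold changes ran from -0.55 to -0.20, with adjusted p up to 0.529 (edgeR or DESeq2). *P2rx7* shared 119 exon bases with the microRNA gene *Mir8115* on the same strand.

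*P2ry13*, an ADP receptor, varied more between libraries of a genotype than between genotypes. It stood at 639, 2586, 2118 and 1541 CPM in WT, 1601, 1288, 1914 and 858 in *Card9*-/-, 355, 1271, 1079 and 1381 in 5xFAD, with 1229, 1336, 765 and 509 in *Card9*-/-5xFAD. The lowest library of every genotype was the one that stood apart, at 28.5% to 53.6% of the mean of the other 3. The averaged log2 fold change of -0.66 (SE 0.34) did not pass (adjusted p = 0.257 by edgeR). *Entpd1*, the ATP- and ADP-degrading enzyme, had 360.04, 681, 503 and 486 CPM in WT, 487, 489, 594 and 496 in *Card9*-/-, 241, 374.5, 356 and 479 in 5xFAD, with 559, 551, 307 and 324 in *Card9*-/-5xFAD. Its averaged log2 fold change was -0.37 (SE 0.21, adjusted p = 0.321 by edgeR; -0.28, adjusted p = 0.261, without the 4 libraries that stood apart). The groups with and without transgenes overlapped within each *Card9* genotype.

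Leaving out the 4 libraries that stood apart raised the number of members that passed in the averaged comparison to 3: *Adora3*, *P2rx7* (-0.55, SE 0.15, adjusted p = 0.0181) and *P2ry13* (-0.61, SE 0.19, adjusted p = 0.0307), all lower with the transgenes. The share of all genes that passed by edgeR in that setting rose as well, to 34.5%. In *Card9*-/-5xFAD against *Card9*-/-, *Adora3* (-0.65, adjusted p = 0.0618) and *P2rx7* (-0.62, adjusted p = 0.0778) passed without these libraries, beside 16.7% of all genes. By ranges of the remaining 6 against 6 libraries, only *Adora3* of the members did not overlap, beside 9.7% of all genes. By ranges of 3 against 3 libraries, 4 members did not overlap in 5xFAD against WT, beside 28% of all genes: *Adora3*, *P2ry13* and *Entpd1* were lower and *P2rx4* was higher. In *Card9*-/-5xFAD against *Card9*-/-, 3 did not overlap, beside 32.4% of all genes: *Adora3* and *P2rx7* were lower and *Gpr34* was higher.

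*P2ry12*, *Gpr34*, *P2rx4* and *P2ry6* had no difference with the transgenes that passed. *P2ry12*, the most abundant member per kilobase, was at 2033, 6094, 6306.5 and 4999.7 CPM in WT, 5675, 2799, 4554 and 2273 in *Card9*-/-, 2713, 5141, 5301 and 4446 in 5xFAD, with 3907, 4079, 4601 and 1764 in *Card9*-/-5xFAD. All 4 libraries that stood apart were the lowest of their genotype, at 35.0% to 54.7% of the mean of the other 3, and *Card9*-/- replicate 2, which had few choroid plexus marker reads (48.9 CPM), was low as well. The averaged log2 fold change was -0.12 (SE 0.29, adjusted p = 0.842 by edgeR) and -0.11 without the 4 libraries (adjusted p = 0.682).

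*Gpr34* repeated this pattern, with 978, 2976, 2871 and 2205 CPM in WT, 2344, 1321, 2248 and 1289 in *Card9*-/-, 1202, 2787, 2809 and 2444 in 5xFAD, with 2396.1, 2396.04, 2499 and 1123 in *Card9*-/-5xFAD. Its averaged log2 fold change was 0.13 (SE 0.28, adjusted p = 0.818 by edgeR) and 0.18 without the 4 libraries (adjusted p = 0.44). *P2rx4*, the second ATP-gated channel, had 65.7, 167, 144.3 and 144.002 CPM in WT, 133, 177, 162 and 83.4 in *Card9*-/-, 89.6, 175, 187 and 200.1 in 5xFAD, with 205, 210.3, 118 and 80.5 in *Card9*-/-5xFAD. It too was lowest in the library of each genotype that stood apart, and its averaged log2 fold change was 0.23 (SE 0.27, adjusted p = 0.644 by edgeR) and 0.27 without the 4 libraries (adjusted p = 0.229). With 1 surrogate variable in the fit, *P2rx4* passed as higher with the transgenes (0.47, adjusted p = 0.0441), as one of 3 members that passed there, beside 31.5% of all genes.

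*P2ry6*, the UDP receptor, went the other way across libraries. It had 395, 152, 174 and 218 CPM in WT, 296, 266, 199.7 and 278 in *Card9*-/-, 270.1, 153, 123 and 249.5 in 5xFAD, with 225, 194, 193 and 612 in *Card9*-/-5xFAD. The library that stood apart was the highest of its genotype in WT, 5xFAD and *Card9*-/-5xFAD and the second highest in *Card9*-/-, and in *Card9*-/-5xFAD it reached 299.6% of the mean of the other 3. The averaged log2 fold change was -0.003 (SE 0.30, adjusted p = 0.997 by edgeR), its value without the 4 libraries was -0.15 (adjusted p = 0.56), and its sign turned under several settings.

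Some members moved together across the libraries of a genotype. As a description over 16 libraries of log2 CPM, with each genotype's mean taken out, *P2ry12* and *Gpr34* had a Pearson r of 0.98. It was 0.93 for *P2ry13* and *P2rx4*, 0.92 for *P2ry13* and *Gpr34*, 0.87 for *P2ry13* and *Entpd1*, and 0.84 for *P2rx4* and *Entpd1*. *P2ry6* ran opposite to *P2ry12* (r = -0.81) and to *Gpr34* (r = -0.83). Much of this rested on the libraries that stood apart. Over the other 12 libraries, *P2ry12* with *Gpr34* (0.95), *P2ry13* with *Entpd1* (0.89) and *P2rx4* with *Entpd1* (0.86) remained high. In contrast, *P2ry13* with *P2rx4* was 0.62, *P2ry13* with *Gpr34* 0.47, *P2ry6* with *P2ry12* -0.29 and *P2ry6* with *Gpr34* -0.41. The r of *P2ry12* with *P2rx4* turned from 0.77 to -0.50. Over all 16, *P2rx7* followed none of *P2ry12* (-0.04), *P2ry13* (0.07), *Entpd1* (0.07) or *Gpr34* (-0.12), and *Adora3* had its highest r with *P2ry6* (0.61). The r of *P2rx7* with *P2ry6* was 0.42 over all 16 and 0.81 over the other 12, and with *Adora3* it was 0.12 and 0.62. These values share the same libraries, and depth moved with some of them: the r with library depth was 0.78 for *P2rx4* and -0.68 for *Adora3*. Neutrophil markers, all 8 of which were detected in every library, were also highest in these libraries in each genotype. They summed to 2978 CPM in WT replicate 1, 5575 in *Card9*-/- replicate 4 and 5379 in *Card9*-/-5xFAD replicate 4, against at most 2248, 1122 and 757 in the other libraries of these genotypes. In 5xFAD the gap was small, with 1816 CPM in replicate 1 and at most 1707 in the others. Their part in the members' levels was not tested.

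**Figure D3:**
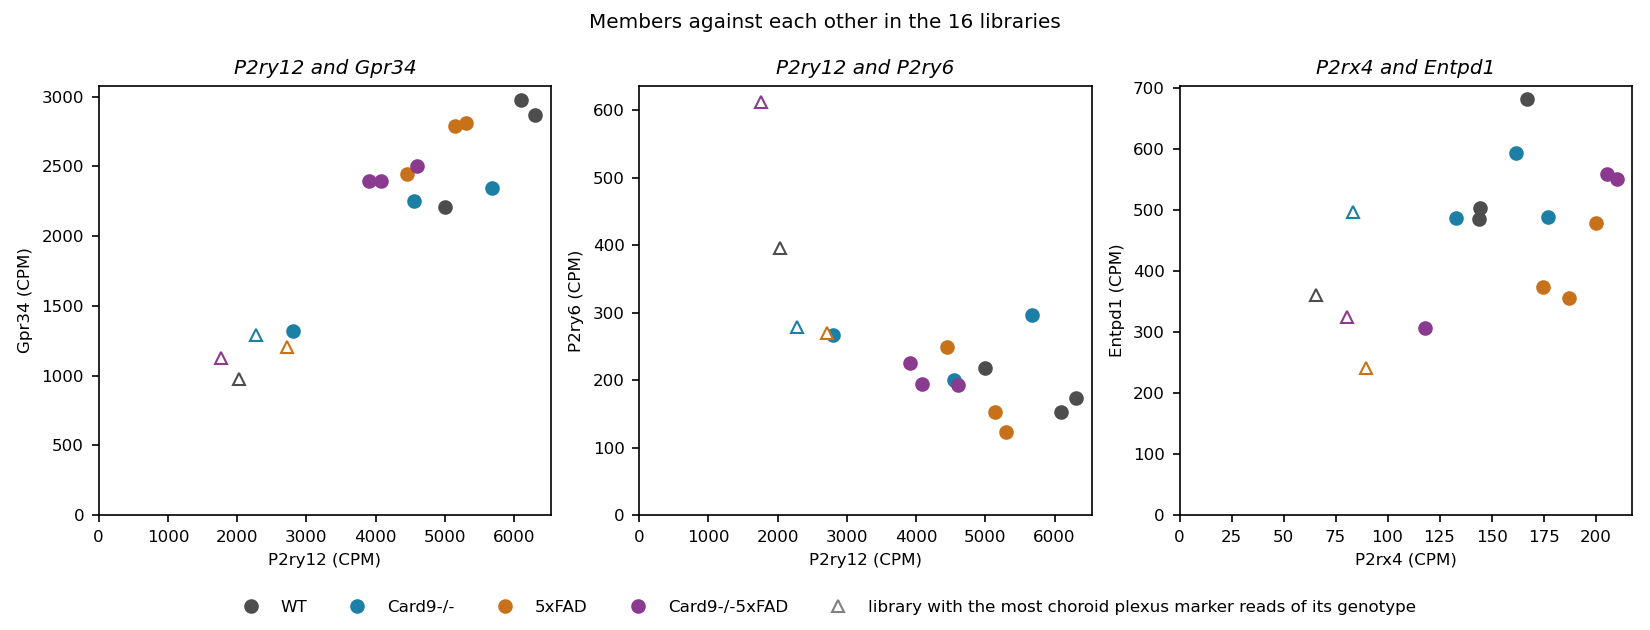
Expression of 1 member against another in the 16 libraries, both axes in CPM and starting at 0, for *P2ry12* with *Gpr34*, *P2ry12* with *P2ry6* and *P2rx4* with *Entpd1*. Points are libraries colored by genotype, with open triangles for those with the most choroid plexus marker reads of their genotype. *Gpr34* rises with *P2ry12* from 978 to 2976 CPM, and *P2ry6* is highest (612 CPM) where *P2ry12* is lowest (1764 CPM). In the third panel, *P2rx4* spans 65.7 to 210.3 CPM and *Entpd1* 241 to 681 CPM.

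Across the 16 libraries, the genes whose log2 CPM was most like each member were searched among 9371 genes, as a description. *P2ry13* was most like *Tmem119* (r = 0.98), a marker of resident microglia, followed by *Slc25a45* and *Bin2*. *P2ry12* and *Gpr34* both had *Selplg*, another gene of resting microglia, among their 3 most like genes (r = 0.96 and 0.98), and *Gpr34* was the ninth most like gene of *P2ry12*. The others for *P2ry12* were *Rtca* and *Gtf2h2*, and for *Gpr34* *Ighm* and *Tspan3*. *P2rx4* was most like *Adipor1* (r = 0.99), *Lipa*, the lysosomal acid lipase, and *X1600014C10Rik* (as the table spells it). *Entpd1* was most like *BC043934*, *Tk2* and *Trpv2* (r = 0.96 each), *P2rx7* like *Anks3* (0.97), *Ralgps1* and *Frmd4b*, and *P2ry6* like *Bcor* (0.93), *Gpatch8* and *Ate1*. *Adora3* had the lowest of these values, with *Lrba* (0.90), *Cd93* (0.87) and *Dusp27* (0.87). The r of these 24 pairs ran from 0.87 to 0.99 over 16 libraries, and from 0.75 to 0.99 over the 12 without those that stood apart.

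Between the *Card9* genotypes no member passed. In *Card9*-/- against WT, 0 of 8 members passed by edgeR or DESeq2 and 0 had an unadjusted p under 0.05, where 0%, 0.0169% and 4.11% of all genes did. The log2 fold changes ran from -0.34 (*P2ry12*, SE 0.41) to 0.15 (*P2rx7*, SE 0.24), with the lowest adjusted p at 0.97. In *Card9*-/-5xFAD against 5xFAD, 0 of 8 passed by edgeR or DESeq2 and 0 had an unadjusted p under 0.05, beside 0%, 0.00675% and 2.52% of all genes. They ran from -0.29 (*P2ry12*, SE 0.41) to 0.62 (*P2ry6*, SE 0.42), with the lowest adjusted p at 0.993. The high *P2ry6* value came from *Card9*-/-5xFAD replicate 4, without which it was 0.04.

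Averaged with and without transgenes, the log2 fold changes between *Card9* genotypes lay between -0.32 (*P2ry12*, SE 0.29) and 0.38 (*P2ry6*, SE 0.30). Again 0 of 8 members passed by edgeR, beside 0.0276% of all genes (lowest adjusted p of a member 0.669). By DESeq2 0 of 8 passed as well, beside 4.04% of only the 2623 genes that its own filter kept. A member outside these 2623 could not pass. An unadjusted p under 0.05 by edgeR was seen in 0 of 8 members and in 9.12% of all genes. The interaction of *Card9* genotype and transgenes ran from -0.18 (*P2rx4*, SE 0.54) to 0.47 (*P2ry6*, SE 0.59), with 0 of 8 members passing by edgeR or DESeq2, and 0 at an unadjusted p under 0.05 (0%, 0.00338% and 0.537% of all genes). No member's 4 and 4 libraries were without overlap in *Card9*-/- against WT, where 2.66% of all genes were, or in *Card9*-/-5xFAD against 5xFAD, where 1.89% were. With SEs of 0.21 to 0.47 in the pairs of genotypes over all 16 libraries, changes of the sizes seen were not detectable here. Without the 4 libraries that stood apart, *Card9*-/- against WT gave -0.41 for *P2ry12* (SE 0.25), 0.49 for *P2ry6* (SE 0.26) and -0.44 for *Gpr34* (SE 0.23). The adjusted p of each was 0.587 by edgeR. In *Card9*-/-5xFAD against 5xFAD, *P2ry12* was then -0.25 (SE 0.25) and *P2ry6* 0.22 (SE 0.26), both with adjusted p = 0.884 by edgeR.

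Other genes of purinergic signaling were taken from a list of 58, of which 40 were tested. With the transgenes, 3 of the 40 passed by edgeR in both pairs of genotypes: *P2rx1* and *Cd38* fell and *Adora1* rose. Of all tested genes, 2.09% passed in 5xFAD against WT and 1.97% in *Card9*-/-5xFAD against *Card9*-/-. In 5xFAD against WT, *P2rx1*, *Cd38* and *Adora1* passed in 25 of 27, 19 of 27 and 26 of 26 alternative settings. The calls held less often in *Card9*-/-5xFAD against *Card9*-/-, in 16 of 27, 9 of 27 and 25 of 26 settings. Adjusted p there reached 0.2, 0.333 and 0.121 (edgeR or DESeq2). *P2rx1*, an ATP-gated channel of platelets and myeloid cells, was at 11.6, 28.5, 35.1 and 25.1 CPM in WT and 22.8, 18.3, 23.6 and 18.6 in *Card9*-/-, against 4.85, 11.5, 8.45 and 8.17 in 5xFAD, with 8.19, 8.44, 8.69 and 7.61 in *Card9*-/-5xFAD. Every library with transgenes lay below every one without, and the averaged log2 fold change was -1.47 (SE 0.23, adjusted p = 0.000881 by edgeR). *Cd38*, an ectoenzyme that consumes NAD, ranged from 21.0 to 59.3 CPM in the 8 libraries without transgenes and from 7.55 to 20.0 in the 8 with them (-1.46, SE 0.26, adjusted p = 0.0027 by edgeR).

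*Adora1*, another adenosine receptor, had 3 to 15 counts per library without transgenes (0.257 to 1.64 CPM) and 11 to 135 with them (1.91 to 13.3 CPM), so its averaged log2 fold change of 3.43 (SE 0.41, adjusted p = 6.57e-05 by edgeR) rests on few reads. The ranges of *P2rx1*, *Cd38* and *Adora1* in 8 against 8 libraries did not overlap, and these 3 were the only ones of the 40, beside 1.66% of all tested genes. Of the adenosine receptors tested, *Adora1* was thus higher in the averaged comparison of transgenes, while *Adora3* and *Adora2b* (given below, also on few reads) were lower.

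**Figure D4:**
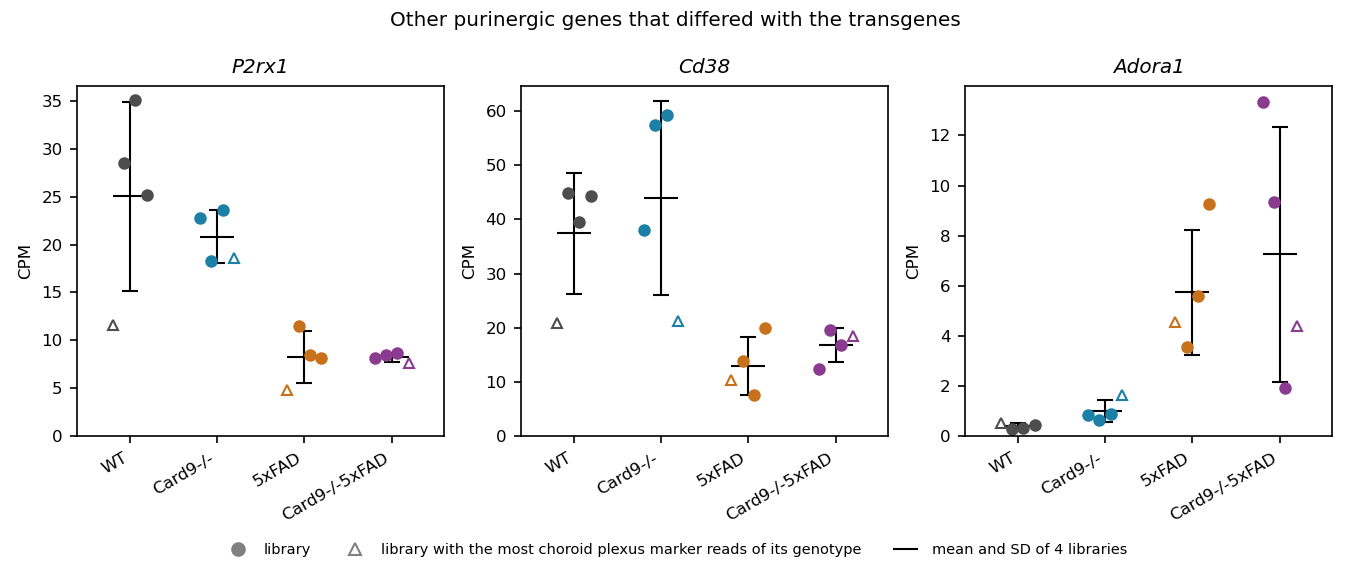
Expression of *P2rx1*, *Cd38* and *Adora1* (vertical axis, CPM, starting at 0) in the 4 libraries of each genotype (horizontal axis), with the mean ± SD (n = 4) and open triangles for the libraries with the most choroid plexus marker reads of their genotype. *P2rx1* and *Cd38* are lower and *Adora1* is higher in all 8 libraries with transgenes than in all 8 without.

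In the averaged comparison 7 of the 40 passed by edgeR, 1 higher and 6 lower, beside 11.3% of all tested genes. The median log2 fold change of the 40 was -0.22. Beyond those above, *Ada*, adenosine deaminase, fell by 0.94 on the log2 scale (SE 0.28, adjusted p = 0.0558 by edgeR), from 6.84 ± 1.95 to 3.598 ± 1.66 CPM (SD, n = 8 each). *Slc28a2*, a nucleoside transporter, fell by 1.33 (SE 0.44, adjusted p = 0.0832), with 6 to 116 counts per library without and 0 to 16 with transgenes. *Adora2b* had 0 to 25 counts per library without and 0 to 5 with transgenes (adjusted p = 0.045), and *Alpl*, alkaline phosphatase, 6 to 42 without and 0 to 11 with them (adjusted p = 0.0699). Of 24 alternative settings, *Ada* passed in 18, *Slc28a2* in 11, *Adora2b* in 19 and *Alpl* in 15. Adjusted p reached 0.203, 0.358, 0.164 and 0.138 in the same order (edgeR or DESeq2). Between *Card9* genotypes 0 of the 40 passed in any comparison by edgeR, and 0, 0 and 3 had an unadjusted p under 0.05 in *Card9*-/- against WT, *Card9*-/-5xFAD against 5xFAD and their average, where the shares of all genes were 4.11%, 2.52% and 9.12%. In the interaction 0 passed and 0 had an unadjusted p under 0.05.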

How the data were processed

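RNA was sequenced from CD11b+ brain cells in 16 libraries, and the authors aligned the reads to mm10 with HISAT2, filtered them with Samtools and counted them per gene with HTSeq. The deposited values are raw read counts per gene symbol, without normalization; the annotation release and strand setting are not given in the sources used here, so reads of overlapping antisense genes may not be separated. Libraries were grouped by the labels, which do not say that each is a separate animal, so p-values measure the spread between these libraries.

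edgeR 4.0.16 (R 4.3.3) tested the counts in 1 quasi-likelihood fit of all 16 libraries after TMM scaling and filterByExpr (minimum count 10), over 14513 genes. Adjusted p (Benjamini-Hochberg, over all genes of a contrast) had a threshold of 0.1. CPM values use TMM library sizes, and log2 CPM adds a prior count of 2. Exon lengths and positions come from GENCODE M21 on GRCm38. Named beyond the members were *Card9*, overlapping genes, each listed purinergic gene that passed, and the 3 genes most like each member (mean log2 CPM of at least 3). The members and lists were chosen with earlier results of these data known. Alternatives were DESeq2 1.42.0, its size factors, other count filters, an adjusted p under 0.05, covariates, sva 3.50.0, the replicate number as a block and leaving out each library. Shares by DESeq2 are of the genes that its own filter kept, from 2623 to 29625 by contrast. Leaving out 4 libraries together and the length covariate were chosen after the data were seen. The edgeR step was tested on simulated data. No 2 libraries of a genotype were copies (lowest chi-square per degree of freedom 6.92).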

Additional observations from a re-analysis of the deposited data

Results flagged for a closer look

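Within each genotype, the level of each member was checked for a library far from the other 3 by Dixon's test. Of 32 groups, 8 held such a library, with a nominal rate of about 1 in 20 for a group taken alone. The members were read in the same 16 libraries, so the groups are not independent of each other. The share of all genes flagged by this rule was not computed, so the count is a description only. *P2ry12* was low in *Card9*-/-5xFAD replicate 4 (1764 CPM), where *Gpr34* was low too (1123 CPM) and *P2ry6* was high (612 CPM). *Gpr34* was also low in 5xFAD replicate 1 (1202 CPM). *P2rx4* was low in WT replicate 1 (65.7 CPM) and in 5xFAD replicate 1 (89.6 CPM). *P2rx7* was low in *Card9*-/- replicate 4 (157 CPM). These 7 values fell in the libraries with the most choroid plexus marker reads of their genotype. *Entpd1* was high in *Card9*-/- replicate 3 (594 CPM), which was not among them.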

How the results depend on the processing

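In the averaged comparison of transgenes, the 1 member that passed, *Adora3*, became 0 without a filter on low counts (3.57% of all genes), 2 by DESeq2 on all libraries (13.2%), 3 with 1 surrogate variable (31.5%), and 3 without the 4 libraries that stood apart (34.5%); leaving out single libraries gave 1 to 2 (2 without *Card9*-/- replicate 4 or *Card9*-/-5xFAD replicate 4). Over all genes, 1647 passed and the alternatives gave 920 to 4948. In 5xFAD against WT, 1 member (*Adora3*) passed with 1 surrogate variable (8.62% of all genes); in *Card9*-/-5xFAD against *Card9*-/-, 1 passed by DESeq2 on all libraries (4.82%), 1 with 1 surrogate variable (12.5%), and 2 without the 4 libraries (16.7%). Leaving these out raised the members whose ranges did not overlap from 1 to 4 and from 1 to 3 in these pairs, and those of all genes from 8.04% to 28% and from 7.01% to 32.4%. The counts of other purinergic genes ran from 2 to 4, 0 to 7 and 3 to 15 in the 3 comparisons of transgenes. The highest were reached without the 4 libraries, beside 7.97%, 16.7% and 34.5% of all genes. The count of 2 was reached without a filter on low counts (0.694%). Those of 0 and 3 were reached when every library had to hold 10 counts (1.44% and 11.2%). In that setting 10243 genes were tested, and low ones such as *Adora1* were not. In the comparisons of *Card9* genotypes and the interaction no alternative gave a member that passed.

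Members with log2 fold changes near 0 turned direction. *P2ry6* averaged over both *Card9* genotypes was 0.065 with DESeq2 size factors, 0.12 when every library had to hold 10 counts and 0.058 by DESeq2 (without single libraries -0.29 to 0.18). In *Card9*-/-5xFAD against *Card9*-/-, *P2ry6* was -0.18 with 1 surrogate variable and -0.29 without the 4 libraries (-0.34 to 0.39 without single libraries), and its interaction was -0.27 without the 4 libraries (-0.10 to 0.64). *P2ry12* was 0.071 with that minimum of 10 counts and 0.11 with 1 surrogate variable in *Card9*-/-5xFAD against *Card9*-/- (-0.28 to 0.16 without single libraries), 0.033 and 0.082 on average (-0.25 to 0.049), and 0.096 with the early response covariate and 0.052 with 1 surrogate variable in 5xFAD against WT (-0.40 to 0.034). *P2rx4* in *Card9*-/-5xFAD against *Card9*-/- was -0.011 with the early response covariate (-0.048 to 0.36), and *P2rx7* in *Card9*-/- against WT was -0.089 with the length covariate. Without single libraries *P2ry6* in 5xFAD against WT ran from -0.41 to 0.13, *Gpr34* there from -0.22 to 0.25 and the *P2rx4* interaction from -0.38 to 0.045. The cause of these turns was not tested.

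Replicate numbers are shared between genotypes in the labels but did not pair the libraries: deviations of same-numbered libraries correlated from -0.71 to 0.73, with 15 of 24 pairs over 0.1, and 5 of 16 libraries correlated best with their own number. With the replicate number as a block, *Adora3* was -0.64 (adjusted p = 0.0202 by edgeR) and 1 member passed. Depth limits the low genes most: *Adora3* had 75 to 902 counts per library.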
